A study of Homo sapiens with 6 samples.

Results

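The core proteins of small nucleolar ribonucleoproteins (snoRNPs), together with coilin, were examined in A375 cells, an established human melanoma line, after silencing of FAH. The genes were listed by name for their place in these particles, with earlier results of these data known, and the rule itself uses no measured value. It holds the 4 proteins bound to box C/D snoRNAs (FBL, NOP56, NOP58 and SNU13), the 4 proteins bound to mature box H/ACA RNAs (DKC1, NHP2, NOP10 and GAR1), the H/ACA assembly factor NAF1, and COIL, which encodes coilin. Of these 10 genes, 8 had a probe set that names them alone and were tested, among 18372 genes tested in all. NOP56 and SNU13 were each read only by a probe set that also names another gene, and they are given below with that limit.

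Box C/D snoRNPs place methyl groups on the ribose of ribosomal RNA, and box H/ACA snoRNPs turn uridine into pseudouridine. In both kinds the snoRNA guides the particle to its target by base pairing, and 1 protein of the core carries the catalytic site. Most human snoRNAs are cut out of introns of host genes, and coilin is the scaffold protein of the Cajal body, the nuclear body through which many of these particles pass as they mature.

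Expression was measured on 6 whole-transcript arrays, 3 of A375 cells transfected with a negative control siRNA and 3 of A375 cells transfected with siFAH, an siRNA against FAH, all harvested 72 h after transfection. FAH encodes fumarylacetoacetate hydrolase, the last enzyme of tyrosine breakdown, and the comparison asks which transcripts differ when it is silenced. All samples are of 1 cell line, a non-targeting siRNA was given to the control cells, and which FAH sequence siFAH carries is not given in the sources used here. The labels hold 1 siFAH condition and 1 control, so effects of FAH loss and of the siRNA itself cannot be told apart. The arrays of a group are described as biological replicates.

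Values are log2 signals from the deposited table, and a change is the mean of the siFAH arrays minus the mean of the control arrays on that scale. A gene was called when its Benjamini-Hochberg adjusted p from limma, taken over all tested genes, was under 0.05. FAH itself read 5.48, 5.59 and 5.68 in control arrays and 4.92, 4.60 and 4.92 in siFAH arrays, a difference of -0.77 (SE 0.10, adjusted p = 0.00213). Over all genes 639 were called higher and 1172 lower, and the median change was 0.00502. Correlations between arrays were 0.995 to 0.997 within a group and 0.988 to 0.995 between groups. The melanocyte lineage genes SOX10, MITF and S100B averaged 8.56, 6.60 and 7.26 in control arrays, whereas the pigment genes PMEL, MLANA and TYR averaged 3.88, 2.90 and 2.95, below the array medians of 4.92 to 5.04. Those 6 genes and 6 markers of keratinocytes, leukocytes, endothelium, epithelium and fibroblasts gave no call.

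Sequence around the start of 3 of the genes shows letters of known promoter motifs. They are taken from RefSeq (GRCh38.p14), which is not stated to be the build of the array annotation. The stretch upstream of NOP10, the core gene with the largest change, is shown first, with its CACGTG matches (the canonical E-box) in capitals, followed by the stretch around the E-box of FBL and the stretch of DKC1 that holds GCATGCGC and its reverse complement as overlapping capitals. Each is given 5′ to 3′ on the strand of its gene.

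NOP10, chr15:34343137-34343386 (minus strand): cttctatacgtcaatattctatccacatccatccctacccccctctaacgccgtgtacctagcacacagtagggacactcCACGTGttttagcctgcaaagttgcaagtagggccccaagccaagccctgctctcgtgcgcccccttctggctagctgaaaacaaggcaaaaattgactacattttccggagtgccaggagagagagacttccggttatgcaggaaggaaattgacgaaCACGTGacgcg

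FBL, chr19:39846358-39846383 (minus strand): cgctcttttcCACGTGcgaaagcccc

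DKC1, chrX:154762709-154762738 (plus strand): gaggctcgaaGCGCATGCGCggtctcgccc

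The search covered 300 bases per gene, 250 before and 50 after the start, on both strands, and a promoter was found for 7 of the 10 genes. NOP58, SNU13 and NAF1 had no promoter in the reference used and were not searched. CACGTG occurred in 7.43% of all 27305 promoters and in those of FBL and NOP10. In NOP10 the matches begin 170 and 11 bases before the start, and in FBL the match begins 7 bases after it. CCGGAAG, an ETS-type motif, occurred in 10.7% of all promoters and in those of FBL, NOP10 and GAR1. GCATGCGC, the core of the NRF1 motif, occurred in 3.27% of all promoters and in that of DKC1. CCAAT occurred in 35.7% of all promoters and in those of FBL, NOP56, NHP2 and NOP10. TATAAA, present in 11.95% of all promoters, had no match in the 7. A match describes these letters only.

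DKC1 is also the host of intronic RNAs, among them a microRNA whose hairpin lies within the span of the H/ACA snoRNA SNORA36A. Its mature forms in RefSeq (GRCh38.p14, plus strand) are shown because the probe set of this intron gave the largest change at the locus, described below. Capitals mark the seed, bases 2 to 8.

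hsa-miR-664b-5p, chrX:154768596-154768619: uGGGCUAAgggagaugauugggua

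hsa-miR-664b-3p, chrX:154768635-154768656: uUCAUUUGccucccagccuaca

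Among the 8 measured genes, NOP10 was called higher and NOP58 was called lower after FAH silencing, and the other 6 did not pass the test. In bulk RNA, fewer cells of a kind and less RNA per cell cannot be told apart, and this holds for each change given here. That is 1 of 8 in each direction. Over all tested genes 9.86% were called, 3.48% higher and 6.38% lower, so the number of calls was small in a set of this size and reads as no property of the set. The median change of the 8 genes was -0.06, and with quantile or cyclic loess normalization it was 0.01 or 0.02, so the set as a whole had no settled direction. The siFAH arrays all lay above the control arrays for FBL, NOP10 and the brighter of the NHP2 probe sets and all lay below them for NOP58, DKC1, NAF1 and COIL. Groups that did not overlap were found for 32.0% of all genes, 13.4% with siFAH above and 18.6% with siFAH below. At an unadjusted limma p under 0.05, 2 of the 8 genes were higher and 4 lower, where 26.2% of all genes passed in either direction. With a 1.2-fold limit added, as in the methods of the study but with limma in place of its test, NOP10 and NOP58 passed, against 12.6% of all genes. NHP2 enters the median and these counts by its brighter probe set, and is 1 of the 2 higher at the unadjusted limit. The locus of that probe set is not settled, and the dimmer one changed by -0.05 with groups that overlapped.

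**Figure D1:**
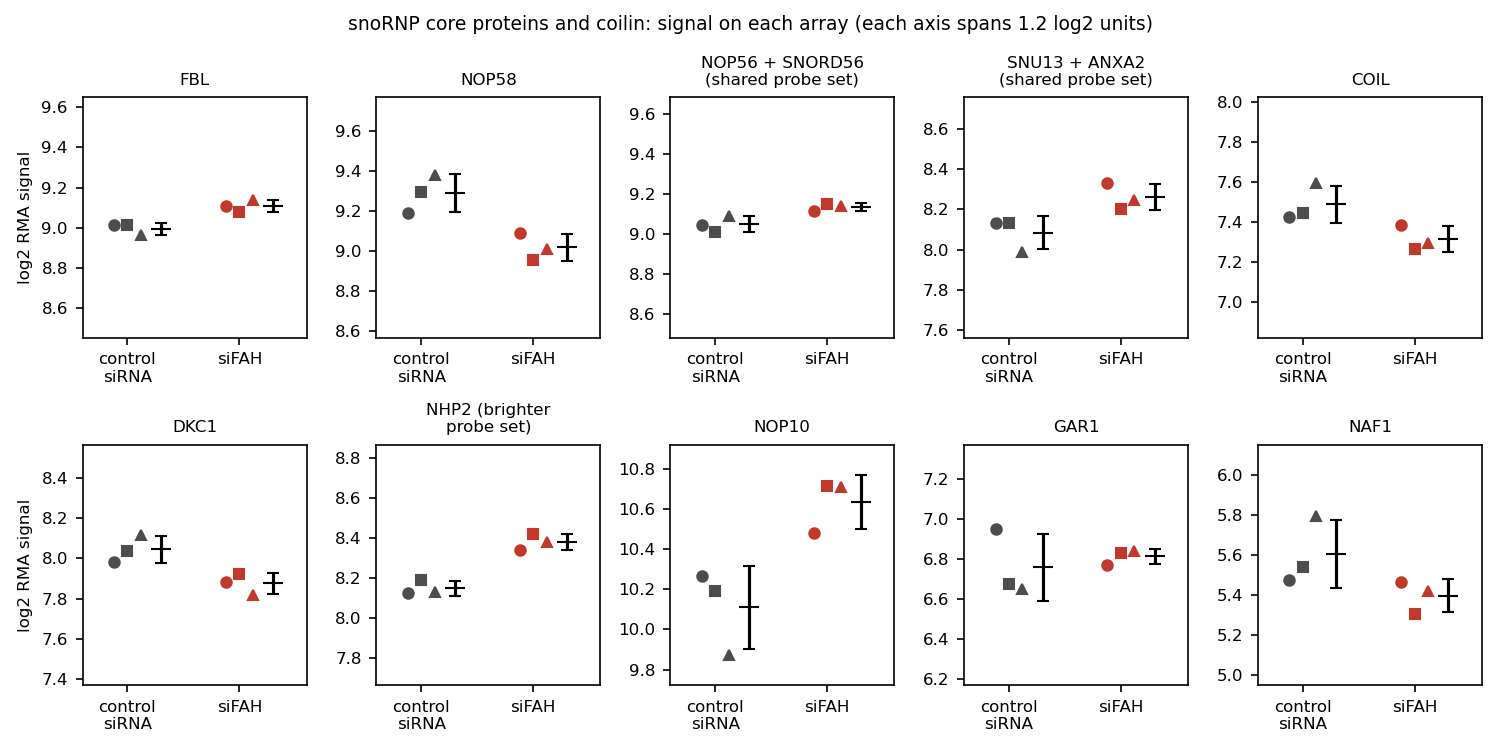
Log2 signal of the 10 genes on each array, in control siRNA (grey) and siFAH (red) cells. Circle, square and triangle are replicates 1, 2 and 3, bars give the mean ± SD of 3 arrays, and every axis spans the same width. NOP10 stood at 9.87 to 10.27 in control and 10.48 to 10.72 in siFAH arrays, while NOP58 stood at 9.19 to 9.38 and 8.96 to 9.09. Panels for NOP56 and SNU13 show probe sets shared with another gene.

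In the box C/D core, FBL encodes fibrillarin, the methyltransferase that acts on the ribose. FBL read 9.01, 9.01 and 8.96 in control arrays and 9.11, 9.08 and 9.14 in siFAH arrays. The groups did not overlap, with the siFAH arrays a little above. The change was 0.11 (95% interval from -0.03 to 0.25, adjusted p = 0.290), which was not called, and it ran from 0.06 with median centring to 0.19 with cyclic loess.

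NOP58 is a scaffold protein of the box C/D particle that pairs with NOP56 and bridges the ends of the RNA. NOP58 read 9.19, 9.30 and 9.38 in control arrays (9.29 ± 0.09, SD, n = 3) and 9.09, 8.96 and 9.01 in siFAH arrays (9.02 ± 0.07, n = 3). Every siFAH array was below every control array, by the least for replicate 1 of each group. NOP58 fell by 0.27 (SE 0.07), a 1.21-fold lower signal, and limma gave an adjusted p of 0.0461. That call sat close to the threshold. It was kept without control replicate 1 (adjusted p = 0.0359) and was lost without any 1 of the other 5 arrays, with adjusted p up to 0.145. It was also lost with quantile normalization (0.0629) and cyclic loess (0.114), with changes of -0.24 and -0.19.

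NOP56, the scaffold partner of NOP58, was read by a probe set that also names SNORD56, a snoRNA in its intron. That probe set gave 9.05, 9.01 and 9.09 in control arrays and 9.11, 9.15 and 9.14 in siFAH arrays. The groups were close together without overlapping, and the change was 0.08 (95% interval from -0.06 to 0.23, adjusted p = 0.453 over all probe sets). It was 0.03 with median centring and 0.16 with cyclic loess. Which of the genes gave the signal cannot be told apart.

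SNU13 encodes the protein that binds the kink-turn of box C/D RNAs first and that also sits on U4 spliceosomal RNA. Its probe set also names ANXA2, the gene of annexin A2. Signals were 8.13, 8.13 and 7.99 in control arrays and 8.33, 8.20 and 8.25 in siFAH arrays. All siFAH arrays were higher, and the change of 0.18 (95% interval from 0.01 to 0.34) was not called (adjusted p = 0.182). It cannot be assigned to SNU13.

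In the H/ACA core, DKC1 encodes dyskerin, the pseudouridine synthase, which is also part of telomerase. DKC1 read 7.98, 8.04 and 8.12 in control arrays and 7.88, 7.92 and 7.82 in siFAH arrays. The siFAH arrays were all lower, by a narrow margin. The change of -0.17 (95% interval from -0.32 to -0.02, adjusted p = 0.152) was not called. It was smaller with quantile normalization (-0.09, adjusted p = 0.431) and cyclic loess (-0.08, adjusted p = 0.472).

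NOP10 is the small protein that docks against the catalytic domain of dyskerin. NOP10 read 10.27, 10.19 and 9.87 in control arrays (10.11 ± 0.21, SD, n = 3) and 10.48, 10.72 and 10.71 in siFAH arrays (10.64 ± 0.13, n = 3). Every siFAH array was above every control array, and replicate 1 of each group lay nearest to the other group. NOP10 rose by 0.53 (SE 0.11, 95% interval from 0.29 to 0.76), a 1.44-fold higher signal, with an adjusted p of 0.0156. The change ran from 0.41 to 0.60 when single arrays were left out, and the call was lost without siFAH replicate 2 (adjusted p = 0.0597) or siFAH replicate 3 (adjusted p = 0.0626).

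NHP2, an RNA-binding protein of the H/ACA core related to SNU13, had 2 probe sets that gave opposite signs. The brighter one, used by rule, read 8.13, 8.19 and 8.13 in control arrays and 8.34, 8.42 and 8.38 in siFAH arrays, and its groups were clearly apart. Its change was 0.23 (SE 0.07, adjusted p = 0.0503), just outside the threshold. It passed with quantile normalization (0.0214), cyclic loess (0.0175), a moderated variance with the trend and robust options (0.0209) and without the dimmest 25% of genes (0.0323). It did not pass with median centring (0.143), the replicate block (0.126) or SAM (0.127), nor without any 1 array (0.0742 to 0.152).

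The dimmer probe set of NHP2 read 7.76, 7.80 and 7.81 in control arrays and 7.87, 7.71 and 7.64 in siFAH arrays. Its groups overlapped, with a change of -0.05 (adjusted p = 0.724), and the mean of both probe sets differed by 0.09 (adjusted p = 0.418). The 20 probe sets with the nearest numbers to the brighter one all belong to genes of chromosome 10, where RefSeq lists the pseudogene NHP2P1, while NHP2 lies on chromosome 5 as do all 20 neighbours of the dimmer one. Which locus the brighter probe set reads cannot be told apart, so no direction is given for NHP2.

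GAR1, which binds dyskerin in the mature H/ACA particle, read 6.95, 6.67 and 6.65 in control arrays and 6.77, 6.83 and 6.84 in siFAH arrays. Control replicate 1 lay above every siFAH array, and the groups overlapped. The change was 0.05 (95% interval from -0.14 to 0.25, adjusted p = 0.738). Omitting control replicate 1, 2 or 3 gave 0.15, 0.01 or 0.00058, and it was 0.00038 with median centring and 0.11 with cyclic loess.

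NAF1 holds the place of GAR1 during assembly and leaves as the particle matures. NAF1 read 5.48, 5.54 and 5.80 in control arrays and 5.47, 5.31 and 5.42 in siFAH arrays. The groups nearly touched at replicate 1, and the change of -0.21 (95% interval from -0.41 to -0.00336, adjusted p = 0.185) was not called. Without control replicate 3 it was -0.11 (adjusted p = 0.467).

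Coilin, encoded by COIL, read 7.43, 7.44 and 7.59 in control arrays and 7.39, 7.26 and 7.29 in siFAH arrays. The siFAH arrays were all lower, again with replicate 1 of each group the nearest. The change of -0.17 (95% interval from -0.34 to -0.01, adjusted p = 0.164) was not called. It was smaller with quantile normalization (-0.11, adjusted p = 0.333) and cyclic loess (-0.09, adjusted p = 0.425).

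**Figure D2:**
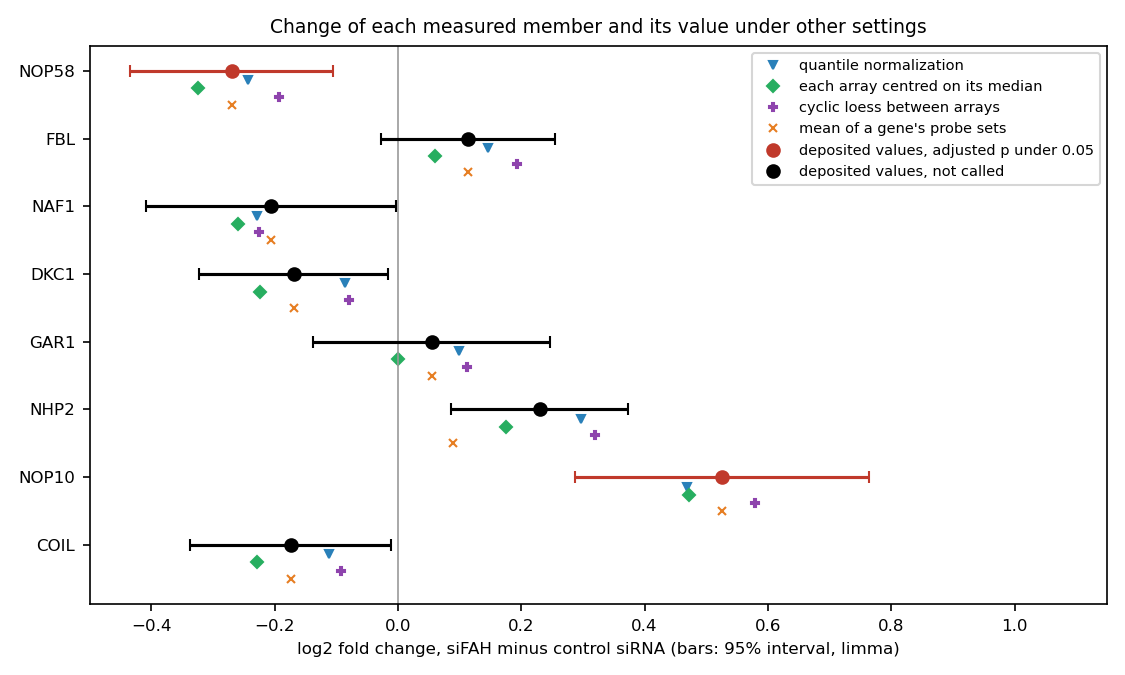
Change of each of the 8 measured genes, siFAH minus control siRNA on the log2 scale, with its 95% interval from limma and the value under 4 other settings. NOP10 (0.53) and NOP58 (-0.27) were called with the deposited values. The symbols for NHP2 spread most toward 0 when its probe sets were averaged (0.09).

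FBL, NOP58, DKC1, NHP2 and NOP10 were among the 10% of genes with the highest mean signal, at percentiles from 91.6 to 99.4. Whether changes across the array varied with signal strength was not tested. The part of signal strength in the changes of NOP10 and NOP58 was not tested either.

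Some of the core genes carry snoRNAs in their introns, and their probe sets were set beside those of the hosts. Of 10 intronic RNAs listed for NOP56, NOP58 and DKC1, all lie inside the span of the host in RefSeq and 5 were on the array, 3 of NOP56, 2 of DKC1 and none of NOP58. The comparison that follows sets, on each array, the intronic probe set minus the host probe set, and asks whether that difference was larger in siFAH cells.

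SNORA51, an H/ACA snoRNA in an intron of NOP56, read 5.74, 5.54 and 5.37 in control arrays and 6.06, 6.13 and 6.16 in siFAH arrays. The groups were well apart. SNORA51 rose by 0.57 (SE 0.09, adjusted p = 0.00580), and the call held when any 1 array was left out.

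SNORD57, a box C/D snoRNA of the same host, read 9.41, 9.34 and 9.06 in control arrays and 9.54, 9.95 and 9.87 in siFAH arrays. All siFAH arrays were higher, replicate 1 by the least. SNORD57 rose by 0.52 (SE 0.12, adjusted p = 0.0233), and the call was lost without control replicate 2 or 3 or siFAH replicate 2 or 3, with adjusted p up to 0.0871.

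At DKC1, the probe set that names MIR664B, SNORA36A and DKC1 together read 4.39, 3.87 and 3.54 in control arrays and 4.44, 5.09 and 5.13 in siFAH arrays. Control replicate 1 and siFAH replicate 1 were almost level, and the other arrays were far apart. The control mean of this probe set, 3.93, was below the array medians of 4.92 to 5.04. The change of 0.95 (SE 0.23, adjusted p = 0.0456 over all probe sets) cannot be assigned to the microRNA shown above, to the snoRNA or to the host. The call was kept without replicate 1 of either group and lost without control replicate 2 or 3 or siFAH replicate 2 or 3, with adjusted p up to 0.154. It was also lost with quantile normalization (0.0514) and cyclic loess (0.0526).

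The probe set that names SNORA56 and DKC1 read 5.48, 5.26 and 5.33 in control arrays and 5.56, 5.87 and 5.70 in siFAH arrays. The siFAH arrays were all higher, and the change of 0.35 (SE 0.10, adjusted p = 0.0631) was not called. It was called without siFAH replicate 1 (adjusted p = 0.0373).

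Relative to the probe set of NOP56 and SNORD56, SNORA51 stood 0.48 higher and SNORD57 0.43 higher in siFAH than in control cells. Relative to the probe set of DKC1 alone, the probe set of MIR664B, SNORA36A and DKC1 stood 1.12 higher and that of SNORA56 and DKC1 0.52 higher. The probe set of NOP56 and SNORD56 stood 0.35 higher relative to NOP58, its partner in the particle. In each of these 5 differences every siFAH array was above every control array. The exact two-sided permutation p was 0.1 (0.12 after Benjamini-Hochberg adjustment over 6 pairs), the smallest that 3 against 3 arrays allow. The 5 are not independent, since the probe sets of NOP56 with SNORD56 and of DKC1 recur in them. Among single genes 13.4% had every siFAH array above every control array, and no such share was computed for differences. The remaining pair, the probe set of SNU13 and ANXA2 against the brighter probe set of NHP2, differed by -0.05 (exact permutation p = 0.5). Which locus that NHP2 probe set reads cannot be told apart, so this pair gives no direction for NHP2. Over the whole array 175 snoRNAs had a probe set of their own, with a median change of 0.48. Of these, 100 were called higher and 2 lower, where 3.48% and 6.38% of all genes were.

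**Figure D3:**
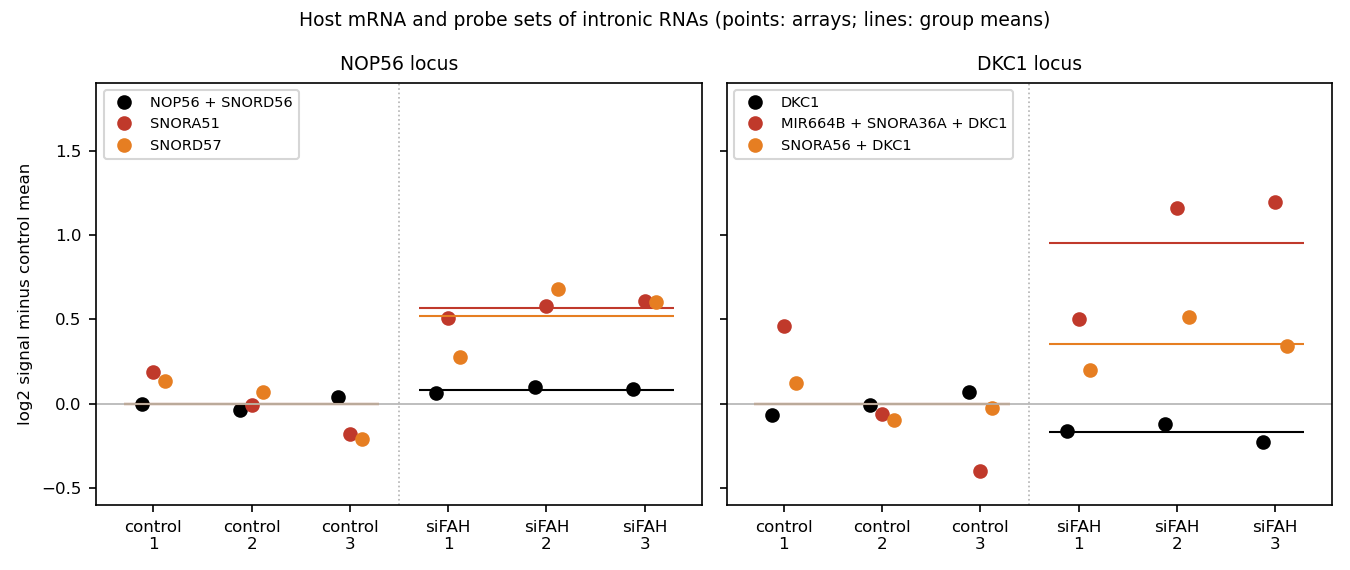
Log2 signal minus the control mean on each array for the NOP56 locus (left) and the DKC1 locus (right). Points are arrays and lines are group means. The probe set of NOP56 with SNORD56 and that of DKC1 alone differed between groups by 0.08 and -0.17. The other probe sets differed by 0.35 to 0.95, and at the DKC1 locus these also name DKC1.

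The genes whose profile over the 6 arrays was most like that of NOP10 were COX6C (Pearson r = 0.998), TCEAL1 (0.997) and SNORA52 (0.996), given as a description since all genes share the same arrays. COX6C, a subunit of cytochrome c oxidase, rose by 0.53 (adjusted p = 0.0113). SNORA52, an H/ACA snoRNA, rose by 0.68 (adjusted p = 0.00698), and both calls held when any 1 array was left out. TCEAL1 rose by 0.29 (adjusted p = 0.0454), and its call was lost without control replicate 2 or 3 or siFAH replicate 2 or 3. All of these genes were picked for their likeness to NOP10 on the same arrays. Their direction follows from that choice, and their calls are no separate support for the change of NOP10.

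The machinery around the core was described by 5 lists, whose shares of calls are set beside the 3.48% of all genes called higher and the 6.38% called lower. No count below is read as a property of its list. Of 20 genes of snoRNP assembly and snoRNA maturation, 2 fell (10%, against 6.38% of all genes), none rose and 18 were not called, with a median change of -0.11 against 0.00502 over all genes. RUVBL2, an ATPase of the complex that builds box C/D particles, fell by 0.29 (SE 0.08, adjusted p = 0.0418), a call kept only without siFAH replicate 1 among the arrays left out singly, with adjusted p up to 0.151. PARN, the nuclease that trims the 3′ ends of H/ACA RNAs and of telomerase RNA, fell by 0.28 (SE 0.07, adjusted p = 0.0352), a call kept only without control replicate 1, with adjusted p up to 0.125. With quantile normalization neither was called (0.0925 and 0.0717).

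Of 37 genes of the small subunit processome, the assembly that forms on ribosomal RNA with the U3 snoRNA, 2 fell (5.41%, below the 6.38% of all genes), none rose and 35 were not called, with a median change of -0.10. UTP4, a processome subunit that binds early, read 10.10, 10.08 and 10.33 in control arrays and 9.68, 9.53 and 9.53 in siFAH arrays. Its groups were well apart, and it fell by 0.59 (SE 0.09, adjusted p = 0.00347) with the call kept without any 1 array. BMS1, a GTPase of the processome, read 7.34, 7.32 and 7.42 in control arrays and 7.05, 7.01 and 6.57 in siFAH arrays. BMS1 fell by 0.48 (SE 0.11, adjusted p = 0.0281), and siFAH replicate 3 was the lowest by far. The call was lost without control replicate 2 or 3 or siFAH replicate 3 (adjusted p up to 0.102).

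Of 21 genes of the Cajal body and the SMN complex, which loads Sm proteins on spliceosomal RNAs, 19 were tested, since SMN1 and SMN2 had only shared probe sets. Of these, 3 fell (15.8%, against 6.38% of all genes), none rose and 16 were not called, with a median change of -0.12. SART3, a recycling factor of the U4/U6 particle that is held in Cajal bodies, fell by 0.34 (adjusted p = 0.0253). PRMT5, the arginine methyltransferase that modifies Sm proteins, fell by 0.34 (adjusted p = 0.0422). GEMIN5, the subunit that recognises the RNA, fell by 0.33 (adjusted p = 0.0459). SART3 stayed called without control replicate 1 or siFAH replicate 1, and PRMT5 and GEMIN5 without control replicate 1, and each of the other omissions ended the calls, with adjusted p up to 0.0982, 0.129 and 0.146.

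Of 21 enzymes that modify RNA without a guide RNA, 1 rose (4.76%, against 3.48% of all genes), 3 fell (14.3%, against 6.38%) and 17 were not called, with a median change of -0.07. RPUSD3, a mitochondrial pseudouridine synthase, fell by 0.43 (adjusted p = 0.0156), lost only without siFAH replicate 3 (0.0643). MRM2, a mitochondrial ribose methyltransferase, fell by 0.37 (adjusted p = 0.0409), and FTSJ3, a nucleolar methyltransferase, fell by 0.32 (adjusted p = 0.0354). Both calls were lost without control replicate 2 or 3 or siFAH replicate 2 or 3 (adjusted p up to 0.142 and 0.117). TRMT13, a transfer RNA ribose methyltransferase, rose by 0.27 (SE 0.07, adjusted p = 0.0309), a call kept only without siFAH replicate 1 (otherwise up to 0.108).

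Of 11 relatives of the core proteins and partners in other particles, 1 rose and 1 fell (9.09% each, against 3.48% and 6.38% of all genes) and 9 were not called, with a median change of -0.11. TERC, the H/ACA-type RNA of telomerase that binds DKC1, NOP10, NHP2 and GAR1, read 6.90, 6.56 and 6.59 in control arrays and 7.01, 7.10 and 7.23 in siFAH arrays. The groups did not overlap, and control replicate 1 lay near the siFAH arrays. TERC rose by 0.43 (SE 0.10, adjusted p = 0.0236), lost without control replicate 2 or 3 or siFAH replicate 2 or 3 (up to 0.0920). TERT, the protein subunit, read 5.87, 5.91 and 5.81 in control arrays and 6.07, 5.91 and 6.05 in siFAH arrays, nearly touching, with a change of 0.15 (adjusted p = 0.223).

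PRPF4, a U4/U6 protein, fell by 0.33 (adjusted p = 0.0260), lost without control replicate 2 or 3 or siFAH replicate 2 or 3 (up to 0.0997). PRPF31, a relative of NOP56 and NOP58 on U4 RNA that binds together with SNU13, differed by -0.13 (adjusted p = 0.275). FBLL1, the close relative of FBL, differed by -0.06 (adjusted p = 0.678). RPL7A, a ribosomal protein of the SNU13 and NHP2 family, differed by 0.23 (adjusted p = 0.0671), read by a probe set whose number neighbours belong to another chromosome than RPL7A.

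**Figure D4:**
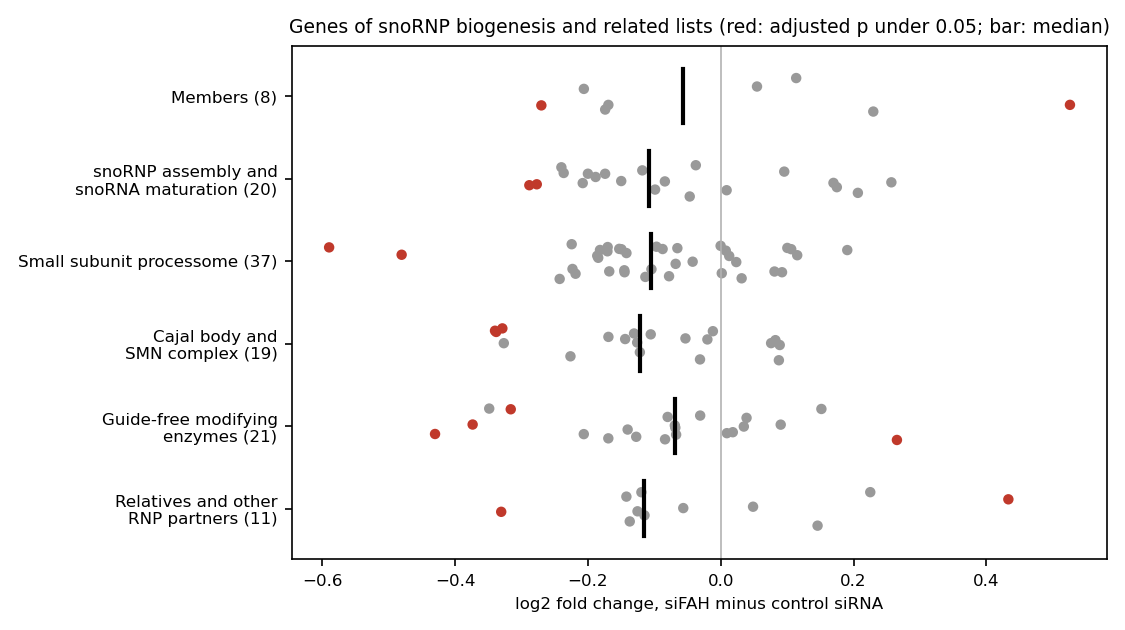
Change of every tested gene, siFAH minus control siRNA on the log2 scale, for the core genes (8) and the 5 lists around them, with the number of genes in parentheses. Red points have an adjusted p under 0.05 and the bar is the median of the list. The list medians run from -0.12 to -0.06, and NOP10 at 0.53 lies farthest to the right.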

How the data were processed

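Values were the log2 signals that the authors deposited after RMA on Affymetrix Human Gene 1.0 ST arrays. The RMA version and annotation build are not given in the sources used here, and the sources name different RNA and labelling kits. Of 28829 probe sets, 19291 name 1 gene, 1735 several and 7803 none. A gene was read by its probe set of highest mean signal. The 18372 genes were fitted with limma 3.58.1 (R 4.3.3), siFAH against control with 3 arrays each and no block, with Benjamini-Hochberg adjustment. SAM, named in the methods, and a t-test were alternatives, since SAM on 3 against 3 arrays has only 20 arrangements. Other alternatives were quantile, median and cyclic loess scaling, averaging probe sets and leaving out the dimmest 25% of genes (mean log2 under 4.17). The rest were a moderated variance with both the trend and robust options (below, the trended variance), a replicate block and leaving out each array. Array number limits precision. Named genes were all members, those called in each list, the intronic RNAs and the 3 genes most like NOP10. Members and lists were chosen with earlier results of these data known. Promoters and microRNAs came from RefSeq tables. Scripts were tested on simulated data and used Python 3.11.15, numpy 2.4.6, scipy 1.17.1 and matplotlib 3.10.9.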

Additional observations from a re-analysis of the deposited data

How the results depend on the processing

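With 3 arrays a group, most calls near the threshold depended on the setting. Of the core genes, 2 were called higher with quantile normalization, with cyclic loess, without the dimmest genes and with the trended variance. NHP2, on its brighter probe set, was 1 of the 2 in each of these settings. With the t-test or SAM 0 were called higher (only for SAM can the adjusted p not fall under 0.1 here). Over all 18372 genes the t-test called just 6 higher and 8 lower, and SAM called 0. These counts of 0 therefore say little about the core genes. The number of core genes called lower was 0 with quantile normalization, cyclic loess, the t-test and SAM. It was also 0 with all probe sets tested, a setting chosen after seeing the data. Leaving out arrays gave 0 to 1 core genes in each direction, beside the shares over all genes given in the Results. Over all genes 9.30% were called with quantile normalization, 8.64% with cyclic loess and 11.4% with median centring. Without the dimmest genes the share was 16.2%, and with the trended variance it was 12.7%. The median change of the core genes was 0.00638 (quantile), 0.0161 (cyclic loess) and -0.11 (median centring), and NHP2 differed by -0.0506 on its dimmer probe set, a setting also chosen after seeing the data.

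The t-test and SAM called 0 genes of every list in every direction, except 1 lower among relatives and partners by the t-test. These counts are to be read beside the few calls that both tests gave over all genes. For assembly and maturation, quantile and cyclic loess called 1 higher and 0 lower, the trended variance called 5 lower, and leave-outs gave 0 to 1 lower. For the processome, median centring and the trended variance called 4 lower, and leave-outs gave 1 to 2. For the Cajal body list, quantile and cyclic loess called 1 lower, and leave-outs gave 0 to 4. For guide-free enzymes, median centring called 0 higher and cyclic loess 1 lower, with leave-outs at 0 to 1 higher and 0 to 4 lower, and the median was -0.12 with median centring. For relatives and partners, cyclic loess, the dim filter and the trended variance called 2 higher, cyclic loess called 0 lower, leave-outs gave 0 to 1 each way, and the median was -0.07 (quantile), -0.17 (median centring) and -0.05 (cyclic loess). FBLL1 differed by 0.00587 without siFAH replicate 3 and by down to -0.0918 without siFAH replicate 1, and PPIH by -0.00555 with median centring. Among all calls the lower share was 64.7%, against 80.1% with median centring, 61.7% with quantile and 56.2% with cyclic loess.

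The replicate numbers did not pair the arrays: deviations of same-numbered arrays correlated at -0.16, -0.09 and -0.27, and no array correlated best with its own number. With the replicate block 299 genes were called higher and 462 lower, NOP10 stayed called and NOP58 did not (adjusted p = 0.112), leaving 0 core genes lower, and the lists had 0 higher, with 0 lower in assembly, Cajal body and relatives and 1 lower in the processome and among guide-free enzymes. NAF1 had the lowest signal of the measured core genes, at percentile 50.9 of all tested genes.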
